A study of Mus musculus with 36 samples.

Results

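The spleen of mice carrying d24, a deletion of the C-terminus of the tumour suppressor p53, was compared with the spleen of mice with wild-type p53 (wt). The comparison used 6 of the 36 libraries of the series, chosen by their titles: 3 d24 spleens and 3 wt spleens, all titled as X-rayed and sequenced single-end. The series also holds liver and thymus of both genotypes, and wt tissues with and without X-rays that were sequenced paired-end, in 12 groups of 3 libraries. Total RNA was taken from tissue kept in RNAlater and made into stranded total-RNA libraries. The sample characteristics disagree with the titles. They give X-rays of 2 Gy and a time of 3 h for the d24 spleens, control for the single-end wt spleens, and WT as the cell type of every library, d24 included. If the characteristics hold, genotype and irradiation cannot be told apart here, and no untreated d24 spleen was analysed. The labels give no age, sex, strain or zygosity for the animals, do not say that libraries of a group came from separate animals, and do not name the last residue that d24 keeps. The p-values therefore measure only the spread between these libraries, which may be technical.

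Of 17697 genes in the single-end table, 13554 reached at least 1 unit in at least 3 of the 6 spleen libraries and were tested. A unit is 1 read per 1000000 reads of an adjusted library size, and 1 read was worth 0.0290 to 0.0418 units. The spleen libraries held 20481048 to 25774126 reads in genes. Values below are given for replicates 1, 2 and 3 in that order. Xist, the RNA of the inactive X chromosome, stood at 646, 546 and 702 units in the d24 libraries and at 0.925, 830.3 and 0.376 units in the wt libraries, while the Y-linked Ddx3y stood at 83.8 and 65.0 units in wt replicates 1 and 3 and at 0.189 units or less in the other libraries. By these genes wt replicates 1 and 3 were male and the other 4 libraries female, so sex moves with genotype, and counts are also given with the Xist level as a covariate. Only replicate 2 of the wt libraries has a high Xist level, so the d24 difference in that fit rests mostly on this library. A call lost with the covariate can come from lost precision or from sex, which cannot be told apart here. Replicate 3 of wt stood apart: its correlation across genes with wt replicates 1 and 2 was 0.915 and 0.907, against 0.982 between those. It also carried pancreatic enzyme RNA, with Ctrb1 at 411 units there and at 0 units in the 5 other libraries, and the share of that RNA in the results was not tested beyond the refits without this library. The spleen markers Tlx1, Nkx2-5, Spic and Cd79a were present in all 6 libraries.

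The p53 protein is a transcription factor that is held low by its own target Mdm2 and accumulates after DNA damage, when it activates genes for cell-cycle arrest, cell death, repair and metabolism. Its C-terminus is a lysine-rich tail that is modified after translation and takes part in DNA binding and in the control of p53 stability. The mouse spleen makes red cells, platelets and granulocytes in its red pulp throughout life, and its white pulp holds B and T lymphocytes on a reticular stroma.

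The d24 spleens had higher RNA of p53 target genes, of mast cell proteases and of the erythroid hormone gene Erfe. They had lower RNA of neutrophil granule, eosinophil and platelet genes. In limma on log2 values, 309 genes passed an adjusted p of 0.05, which is 2.28% of those tested. Of these, 141 were higher in d24 (1.04%) and 168 were lower (1.24%), each by at least 1 on the log2 scale. The groups did not overlap for any of the 309, so for a called gene the lack of overlap adds nothing to its test. The median log2 difference over all tested genes was -0.05. Without any one library in turn, 36 higher and 45 lower genes passed in every refit, and with the Xist covariate 23 higher (0.17%) and 22 lower genes (0.162%) passed. Genes that reached 1 unit in 1 group only entered the test through that group and could be refitted only without a library of the other. They cannot be among the 36 and 45, and include Zfp750, Prrg4, Tnn, C2cd4a, Treml1 and Mpig6b, which passed in all 3 refits they could enter. The gene lists that follow were written with earlier results on these libraries known, so their direction is not independent evidence.

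Trp53, the gene of p53 itself (chr11:69580348-69591873, RefSeq annotation on GRCm38.p6), stood at 145, 214 and 236 units in the d24 libraries and at 107, 91.9 and 98.5 units in the wt libraries. All d24 libraries lay above all wt libraries, by a log2 difference of 0.97 ± 0.27 (SE) that did not pass the threshold in limma (adjusted p = 0.0944). DESeq2 on the recovered reads, which called 2.27% of tested genes higher and 2.12% lower (edgeR 0.612% and 0.457%), gave an adjusted p of 0.00873 for the same gene. It did not pass in edgeR (adjusted p = 0.103), with the Xist covariate (adjusted p = 0.713 in limma) or in any refit without 1 library. The level of Trp53 RNA does not check the deletion, because the deleted stretch is not separated from the rest of the gene in these values.

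Cdkn1a, which encodes the cell-cycle inhibitor p21 and is the best known p53 target, had the smallest p of the p53 genes (chr17:29090979-29100722, GRCm38.p6). Its levels were 319, 416 and 384 units in d24 and 5.46, 7.36 and 9.37 units in wt. The groups lay far apart, with a log2 difference of 5.59 ± 0.28 (limma adjusted p = 1.63e-06, and 2.16e-05 with the Xist covariate). In the paired-end table the same gene stood at 4.88, 3.74 and 6.32 units in untreated wt spleen and at 157, 162 and 150.1 units in X-rayed wt spleen. The wt libraries titled as X-rayed and sequenced single-end thus lay near the untreated level of the other table, although the tables were normalised separately. Some genes differ widely in level between the tables. H2ac23, a histone gene picked after its values were seen, stood at 429, 458 and 687 units in single-end wt spleen. In untreated paired-end wt spleen it stood at 0.314, 0.358 and 0.417 units. Levels set across the tables are therefore not like for like, for a reason that was not tested. The sequence before the more distal of the annotated starts of Cdkn1a is shown because it holds matches to the p53 decamer consensus, in capitals, from 73 to 64 and from 51 to 42 bases before the start. It is 250 bases of the plus strand at chr17:29090729-29090978 from RefSeq GRCm38.p6.
Cdkn1a: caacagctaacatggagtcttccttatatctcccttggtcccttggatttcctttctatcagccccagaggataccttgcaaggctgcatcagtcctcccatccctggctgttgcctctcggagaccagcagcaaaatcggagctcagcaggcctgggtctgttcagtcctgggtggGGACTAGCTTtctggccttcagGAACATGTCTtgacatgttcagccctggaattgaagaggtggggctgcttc
The decamer was found on either strand, in windows of the same length, for 6 of the 14 called p53-list genes that have a window (42.9%), and for 7.28% of the 10373 tested genes with a window. It is not particular to them: 5 of the 12 called secondary granule genes with a window (41.7%), all lower in d24, held it too. A match is a description of letters, not of a bound site.

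Other genes of p53 feedback and arrest moved with it. Of 21 tested members of that list 5 were higher and none lower, beside 1.04% and 1.24% of all tested genes, with a median log2 difference of 0.90 over the 21. Eda2r, a death-domain receptor of the tumour necrosis factor family on the X chromosome and a member of the apoptosis list, stood at 34.4, 75.1 and 35.9 units in d24 and 1.05, 0.535 and 1.13 units in wt (log2 difference 5.05 ± 0.45, limma adjusted p = 0.000154). Zmat3, a zinc-finger RNA-binding protein, stood at 37.1, 61.8 and 34.9 against 6.29, 5.91 and 5.90 units (2.74 ± 0.35, adjusted p = 0.00138). Phlda3, an inhibitor of Akt signalling, stood at 29.1, 46.4 and 57.6 against 4.15, 6.54 and 7.45 units (2.76 ± 0.38, adjusted p = 0.00210). The lowest d24 library of each of these genes lay above its highest wt library. Ccng1, cyclin G1, was the most abundant of the called targets, at 423, 563 and 459 against 105, 92.0 and 102 units (2.26 ± 0.25, adjusted p = 0.000437). Mdm2, the ubiquitin ligase that degrades p53, stood at 96.3, 127 and 97.2 against 48.7, 42.8 and 36.1 units, a smaller difference of 1.32 ± 0.26 (adjusted p = 0.0228, and 0.439 with the Xist covariate). Its call held in 2 of 6 refits that left out 1 library.

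Of 16 tested genes of p53-dependent apoptosis, 4 were higher: Eda2r, Pmaip1, Aen and Ei24. Pmaip1, the BH3-only protein Noxa, stood at 23.7, 19.0 and 35.6 units in d24 and 5.07, 6.04 and 7.36 units in wt (log2 difference 1.96 ± 0.37, limma adjusted p = 0.0177). Aen, a nuclease induced in apoptosis, stood at 69.6, 91.2 and 51.9 against 23.2, 21.5 and 28.1 units (1.50 ± 0.30, adjusted p = 0.0224). These calls depended on single libraries: 1 member of the list passed without d24 replicate 1, 2 without d24 replicate 2, d24 replicate 3 or wt replicate 2, and 5 without wt replicate 3. With the Xist covariate 1 passed, and Pmaip1 and Aen did not (adjusted p = 0.317 and 0.231 in limma). The call of Ei24 held in 1 of 6 refits without 1 library. The classical mediators Bax and Bbc3 (Puma) did not pass, with log2 differences of 1.00 and 1.21 and adjusted p of 0.226 and 0.213. Fas, a death receptor, stood at 5.71, 4.14 and 2.67 units in d24 and 3.54, 5.57 and 5.52 units in wt, and the groups overlapped (-0.23 ± 0.48, adjusted p = 0.892). Trp53inp1 and Sesn2, a stress-response adaptor and a sestrin, were separated by 1.05 and 1.10 and missed the threshold (adjusted p = 0.0507 and 0.143). None of the 11 tested repair genes passed. Pcna, the replication clamp, differed by -0.27.

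Among 17 genes of p53-regulated metabolism and signalling, 7 were higher and none lower. Zfp365, a zinc-finger gene, stood at 29.0, 46.8 and 47.0 units in d24 and 0.542, 1.10 and 0 units in wt, so that the wt libraries held almost no reads of it (log2 difference 5.43 ± 0.51, limma adjusted p = 0.000207). The others were Inka2 (3.08 ± 0.37), Prrg4 (3.54 ± 0.55), Dglucy (2.49 ± 0.38), Cpt1c, a brain-type carnitine palmitoyltransferase (2.20 ± 0.38), Ddit4, an inhibitor of mTORC1 (1.79 ± 0.39), and Dcxr (1.76 ± 0.36). Of these 7, only Zfp365 passed with the Xist covariate, and 3 members passed without d24 replicate 2 and 4 without d24 replicate 3. Prrg4 reached 1 unit only in the d24 libraries, so it entered the test through them and could not be tested without any one of them. Over all 4 p53 lists, 65 of 69 genes passed the filter on low values, 16 were higher and none lower, and the median log2 difference was 0.53. Left out one at a time, the libraries gave 9 to 19 higher members (19 without wt replicate 3, 9 without d24 replicate 2), and the Xist covariate gave 5. The groups did not overlap for 27 members with d24 higher and 2 with d24 lower, where 8.74% and 10.6% of all tested genes did so.

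**Figure D1:**
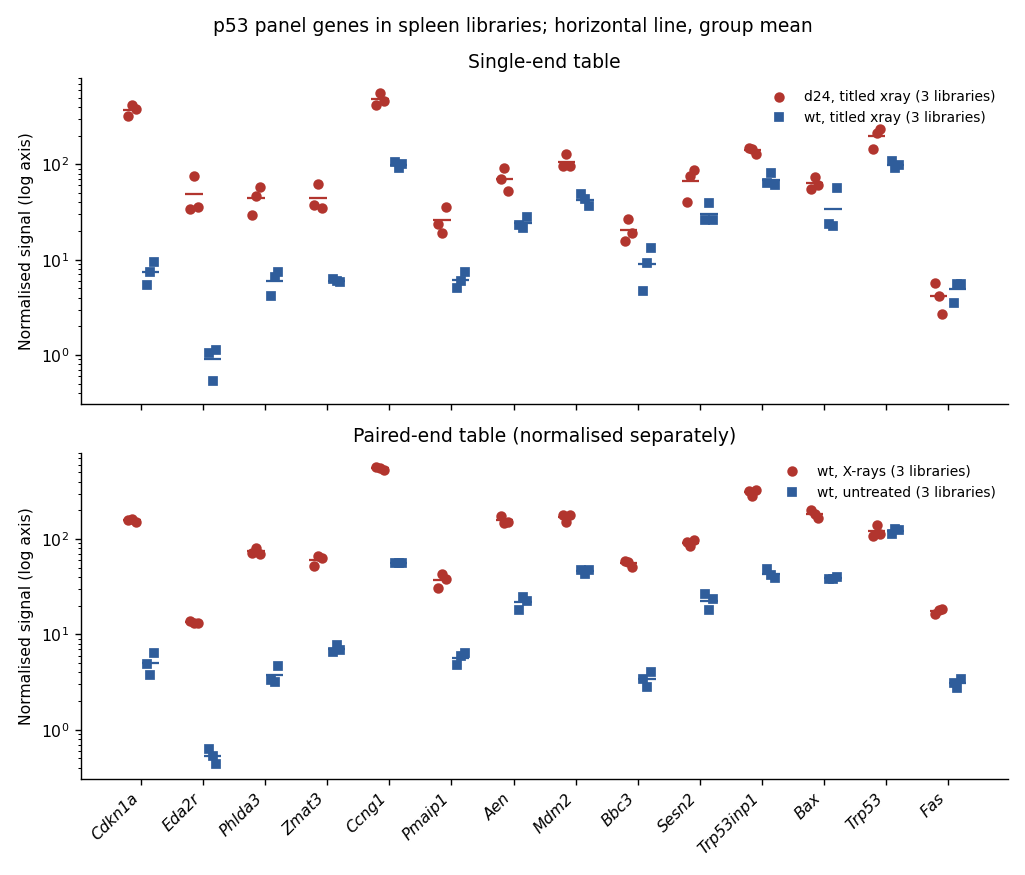
Level of the 14 genes of the p53 panel in normalised signal units on a log axis, one point per library and a line at each group mean, for the single-end spleens (d24 and wt, 3 libraries each) and for the paired-end wt spleens (X-rayed and untreated, 3 libraries each). The d24 points lie above the wt points for Cdkn1a, Eda2r, Phlda3, Zmat3 and Ccng1 and overlap them for Fas and Bax, and in the paired-end panel Fas and Bax are separated.

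To set the size of these differences beside irradiation alone, the paired-end wt spleens were used, 3 X-rayed and 3 untreated, which share no library with the d24 comparison. X-rays raised 19.5% and lowered 20.4% of 13389 tested genes there. For the p53 targets the X-ray difference in wt spleen was 3.28 for Ccng1, 3.75 for Eda2r, 3.00 for Zmat3, 4.16 for Phlda3 and 1.86 for Mdm2 on the log2 scale. For Bbc3 it was 3.85, for Trp53inp1 2.83, for Bax 2.22 and for Fas 2.35, all genes whose d24 difference did not pass. Trp53 differed by -0.03 under X-rays. Over the 64 p53-list genes tested in both tables, 47 were higher and 6 lower under X-rays, with a median of 1.29. Across those 64 genes the d24 difference and the X-ray difference had a Pearson correlation of 0.780 and a Spearman correlation of 0.769, and across all 12881 genes tested in both tables the correlations were 0.105 and 0.115. All 16 called p53 genes were higher under X-rays as well. These are descriptions over genes, which are not replicates. Of 124 genes higher in d24, 60 were also higher under X-rays (48.4% of them, and 2.44% of the 2457 X-ray-higher genes). Of 154 genes lower in d24, 60 were higher under X-rays (39.0%) and 18 were lower.

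**Figure D2:**
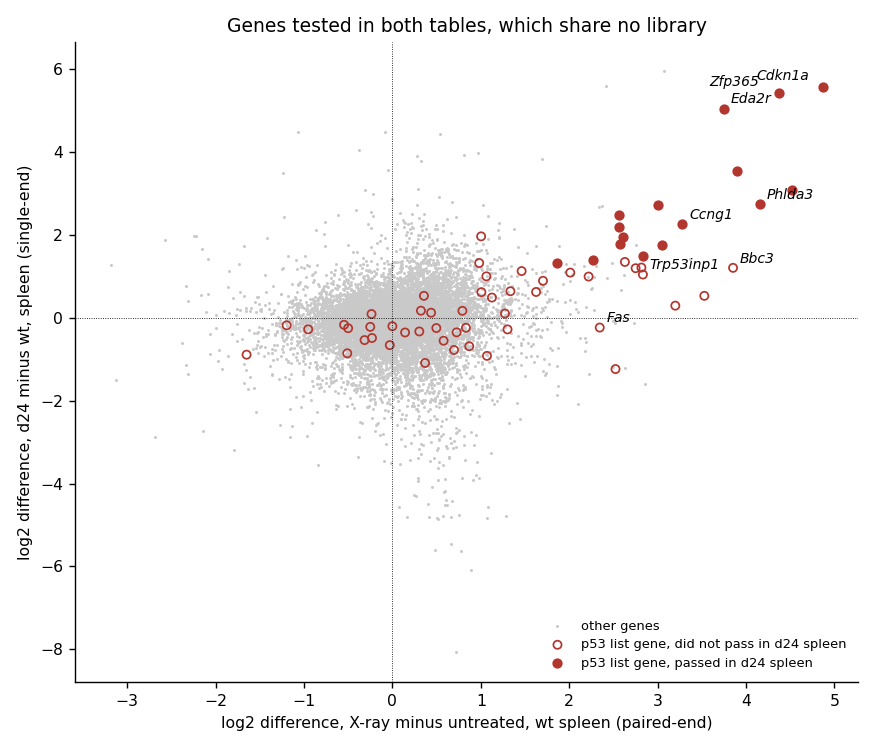
Log2 difference of d24 against wt spleen (single-end) plotted against the log2 difference of X-rayed against untreated wt spleen (paired-end), one point per gene tested in both tables. Filled red points are the 16 p53-list genes that passed in d24, all at an X-ray difference of at least 1.86, and open red points are p53-list genes that did not pass, such as Fas at -0.23 in d24 and 2.35 under X-rays.

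Other groups of the radiation response were set side by side in the same way. The 13 tested NF-kB response genes were all higher under X-rays (median 1.63), and none was called in d24 (median 0.01). Of the 27 S-phase genes, 25 were lower under X-rays, and none passed in d24 (median -0.24). The 30 G2/M genes had a median difference of -0.42 in d24 and none passed. Mki67, the proliferation antigen, stood at 1016, 1713 and 1359 units in d24 and 3426, 2586 and 633 units in wt, where the lowest value was that of wt replicate 3. The 13 immediate early genes had no call in d24 (median -0.15). The difference between the comparisons was not tested, because the tables were normalised separately.

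Primary granule genes, which promyelocytes use to build azurophil granules, included the largest decrease of any called gene, that of Mpo. Of 15 tested, 9 were lower and none higher, beside 1.24% and 1.04% of all tested genes, with a median log2 difference of -2.75. Fewer cells of a type and less RNA per cell cannot be told apart in whole spleen. Mpo, myeloperoxidase (chr11:87793784-87804412, GRCm38.p6), stood at 1.07, 0.311 and 0 units in d24 and 191, 204 and 319.8 units in wt, a log2 difference of -8.08 ± 0.45 (limma adjusted p = 2.17e-06). Elane, neutrophil elastase (chr10:79886312-79888216), stood at 1.51, 1.07 and 0 against 50.001, 57.0 and 173 units (-6.09 ± 0.60, adjusted p = 0.000256). Prtn3, proteinase 3, stood at 1.10, 1.38 and 0.571 against 39.0, 44.0 and 222 units (-5.63 ± 0.60, adjusted p = 0.000410). The d24 libraries together held few reads of these, 46 of Mpo, 83 of Elane and 93 of Prtn3, and wt replicate 3 was the highest library each time. Ctsg, cathepsin G, stood at 1.42, 0.173 and 0 against 23.3, 27.0 and 111 units (-5.60 ± 0.67, adjusted p = 0.000977), and Ms4a3 and Fcnb, a progenitor membrane protein and a ficolin, fell by 5.46 and 4.84 on the log2 scale. Without wt replicate 3, 8 members were lower, as for most other libraries left out (7 without d24 replicate 2), and 5 were lower with the Xist covariate. In the paired-end table Mpo stood at 11.4, 24.7 and 16.2 units in untreated and 32.5, 39.7 and 16.3 units in X-rayed wt spleen. These values lay above the d24 and below the single-end wt values, but levels are not like for like across the tables.

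The promoters of Mpo and Elane are shown because the 6 called primary granule genes with a window all held GGAAGT, the core letters bound by the myeloid factor PU.1, against 27.1% of the tested genes with a window. GGAAGT was also held by 8 of 12 T cell genes with a window, a list with no called gene. Each promoter shown is the 250 bases before the start on GRCm38.p6 from RefSeq, with GGAAGT in capitals, searched on both strands. The Mpo window is chr11:87793534-87793783 on the plus strand and the Elane window chr10:79886062-79886311 on the plus strand.
Mpo: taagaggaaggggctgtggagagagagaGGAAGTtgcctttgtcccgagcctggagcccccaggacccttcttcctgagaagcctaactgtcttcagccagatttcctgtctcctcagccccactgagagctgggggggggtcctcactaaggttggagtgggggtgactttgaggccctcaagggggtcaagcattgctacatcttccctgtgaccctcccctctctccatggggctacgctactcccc
Elane: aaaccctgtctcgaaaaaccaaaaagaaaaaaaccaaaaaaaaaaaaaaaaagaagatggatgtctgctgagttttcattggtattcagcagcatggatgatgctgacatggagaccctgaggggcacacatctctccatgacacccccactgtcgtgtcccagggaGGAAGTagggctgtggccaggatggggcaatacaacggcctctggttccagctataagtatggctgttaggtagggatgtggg
The match lay from 222 to 217 bases before the start of Mpo and from 83 to 78 bases before the start of Elane.

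Secondary and later granule genes, made in maturing neutrophils, were lower in 12 of 21 tested members and higher in none (median -3.06). Camp, the cathelicidin antimicrobial peptide, stood at 31.5, 12.9 and 5.94 units in d24 and 183, 219.7 and 931 units in wt (-4.58 ± 0.62, limma adjusted p = 0.00206). S100a9, a subunit of calprotectin, stood at 280.4, 89.0 and 46.6 against 677, 911 and 2617 units (-3.47 ± 0.60, adjusted p = 0.00969). The groups did not overlap for either gene, but both the d24 and the wt libraries varied widely. The summed level of the list was 1513, 479 and 256 units in d24 and 3734, 4555 and 10703 units in wt, so that d24 replicate 1 and wt replicate 3 were each the highest of their group. Ngp (-3.86) and Stfa2l1 (-3.09) were also lower, the latter a stefin of a near-identical gene family whose reads may be split. These calls changed with single libraries: 16 members passed without d24 replicate 1, 1 without d24 replicate 2, 3 without d24 replicate 3 and 7 without wt replicate 3, and 1 passed with the Xist covariate. In the paired-end table the list summed to 1051 to 1127 units in untreated and 1569 to 2188 units in X-rayed spleen.

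Eosinophil genes were lower in 7 of 10 tested members (median -3.46). Prg2, the granule major basic protein (chr2:84980461-84983632, GRCm38.p6), stood at 75.3, 16.8 and 37.5 units in d24 and 809, 810.2 and 1647 units in wt (-4.80 ± 0.46, limma adjusted p = 0.000234). Epx, eosinophil peroxidase, stood at 19.0, 3.11 and 3.01 against 155, 175 and 207 units (-4.83 ± 0.54, adjusted p = 0.000573). Both encode major proteins of the eosinophil granule, and every wt library lay well above every d24 library. Ear6, an eosinophil-associated ribonuclease, stood at 13.9, 3.21 and 4.64 against 154, 154 and 249 units (-4.80 ± 0.45), and Ear1 (-4.07) and Ear2 (-2.85) followed it. The Ear genes are near-identical copies, so their single values are uncertain. Ccr3 and Siglecf, the surface markers of mature eosinophils, did not pass, at 0.19 and -0.80. The list passed 6 to 8 lower members without each library and 5 with the Xist covariate. Its summed level was 254, 81.6 and 178 units in d24 and 1626, 1623 and 2831 units in wt. It was 83.3 to 161 units in the untreated paired-end wt spleens, whose levels are not like for like with these.

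Monocyte genes were lower in 3 of 12 tested members (median -1.01). F13a1, coagulation factor XIII subunit A, which monocytes and platelets make, stood at 3.33, 1.69 and 8.60 units in d24 and 27.8, 39.2 and 36.02 units in wt (-3.02 ± 0.49, limma adjusted p = 0.00684). Ccr2, the receptor for exit of monocytes from the marrow, fell by 3.53 and Ly6c2, a marker of inflammatory monocytes, by 3.43 on the log2 scale. None of these passed with the Xist covariate, and 2 to 4 members were lower without each library. Another 4 members had positive differences that did not pass, among them Fn1, fibronectin (1.39), and Ace, angiotensin-converting enzyme (1.05). The summed level of the list was 824, 609.6 and 1037 units in d24 and 567, 617 and 845 units in wt, so the total overlapped between the groups and was not lower in d24. Of 18 tested macrophage genes, 1 was higher and none lower (median 0.17). That gene was Mertk, a receptor for uptake of dying cells, whose difference of 1.20 ± 0.28 passed narrowly (adjusted p = 0.0484) and in none of the 6 refits without 1 library. Csf1r, the receptor for macrophage growth factor, differed by 0.75 and did not pass (adjusted p = 0.248). Of 11 dendritic cell genes, only Siglech, a plasmacytoid marker, passed, at -3.07 ± 0.60 (adjusted p = 0.0214, and 0.368 with the Xist covariate), and in 2 of 6 refits without 1 library.

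Megakaryocyte and platelet genes had the largest share of called members of the 34 lists, with 20 of 23 tested genes lower and none higher (median -3.36). Ppbp, the platelet basic protein (chr5:90768518-90770063, GRCm38.p6), stood at 8.25, 9.50 and 14.7 units in d24 and 276, 214 and 502 units in wt (-4.82 ± 0.35, limma adjusted p = 3.68e-05). Pf4, platelet factor 4 (chr5:90772435-90773383), stood at 5.33, 4.56 and 3.01 against 84.4, 62.4 and 238 units (-4.53 ± 0.46, adjusted p = 0.000311). Itgb3, the beta chain of the fibrinogen receptor, stood at 9.91, 9.63 and 8.91 against 134, 111 and 70.4 units (-3.36 ± 0.31, adjusted p = 0.000207). The d24 libraries were alike for these genes, and wt replicate 3 was highest for both chemokines but lowest of wt for Itgb3. Treml1, a receptor stored in platelet granules, stood at 0.550, 0.276 and 0.914 against 21.2, 21.2 and 47.5 units (-4.75 ± 0.50). The 3 members that did not pass were Selp, Vwf (-0.88) and Slc24a3, and endothelium makes Selp and Vwf too. Left out one at a time, libraries gave 14 to 20 lower members, with 14 without wt replicate 3, and the Xist covariate gave 7. The summed level of the list was 149, 162 and 130.02 units in d24 and 1234, 1022 and 1558 units in wt. It was 259 to 323 units in untreated paired-end wt spleen, whose levels are not like for like with these.

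The promoter of Pf4 is shown because it holds GGAAGT close to the start, the letters also bound by the megakaryocyte factors of the ETS family. It is the plus strand at chr5:90772185-90772434 on GRCm38.p6, and the match lies on the other strand, from 10 to 5 bases before the start, where it reads ACTTCC in capitals.
Pf4: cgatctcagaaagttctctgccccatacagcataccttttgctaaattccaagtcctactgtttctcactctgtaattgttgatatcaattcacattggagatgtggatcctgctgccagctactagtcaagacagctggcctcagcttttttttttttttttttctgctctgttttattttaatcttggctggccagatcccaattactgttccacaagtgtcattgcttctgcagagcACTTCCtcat
Of 16 called platelet genes with a window, 6 held GGAAGT and 7 held GATAA, the letters of GATA factors, against 27.1% and 17.6% of the tested genes with a window.

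**Figure D3:**
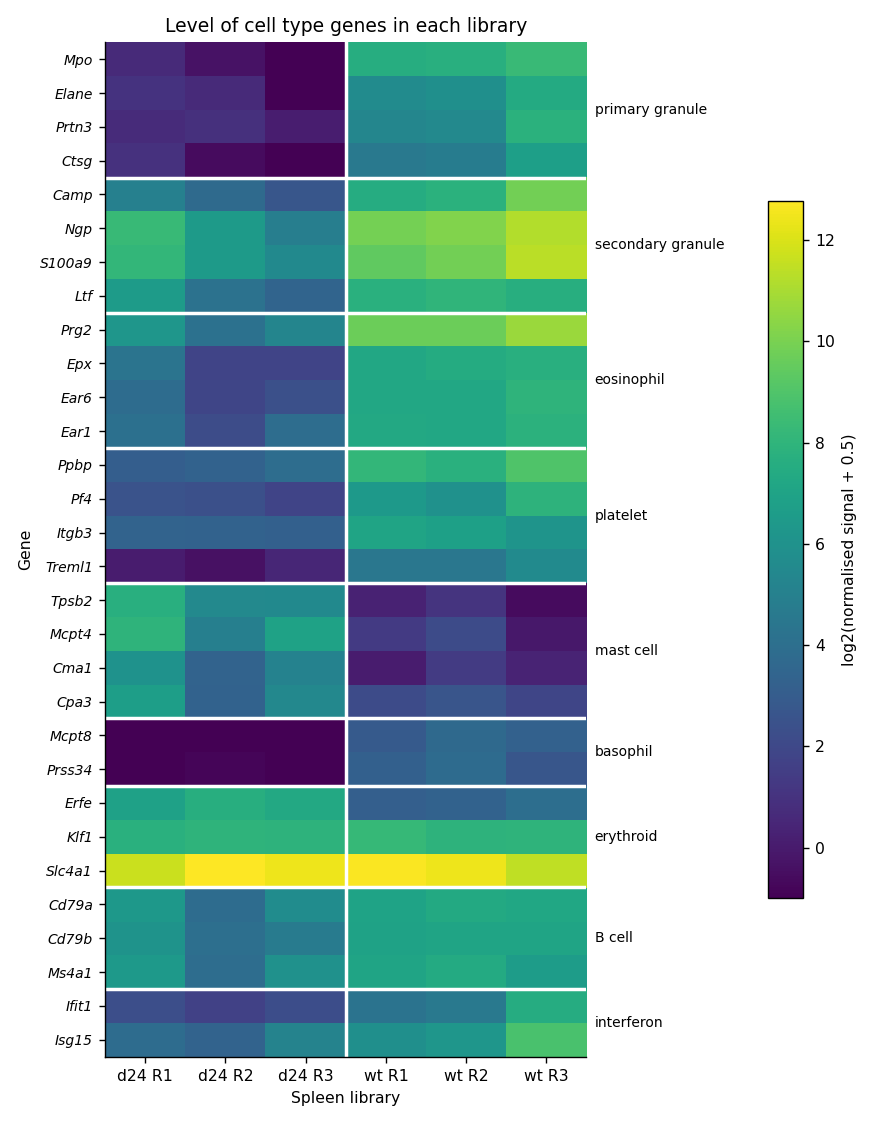
Level of genes of each cell type in the 6 single-end spleen libraries, as log2(normalised signal + 0.5), with genes as rows, libraries as columns and brighter colour for higher level. The granule, eosinophil, platelet and basophil genes are darker in the 3 d24 columns, the mast cell genes and Erfe are brighter there, and wt replicate 3 is the brightest column for Ifit1 and Camp.

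Mast cell genes moved the other way. Of 16 tested mast cell and basophil genes 8 were higher and 2 lower, with a median log2 difference of 1.98. Tpsb2, mast cell tryptase (chr17:25366308-25368096, GRCm38.p6), stood at 207, 45.2 and 46.6 units in d24 and 0.766, 1.64 and 0.167 units in wt (5.97 ± 0.61, limma adjusted p = 0.000339). Mcpt4, a chymase of connective tissue mast cells (chr14:56059744-56062310), stood at 248, 30.5 and 121 against 2.07, 3.90 and 0.418 units (5.49 ± 0.71, adjusted p = 0.00162). Cma1, another chymase, stood at 64.4, 10.05 and 33.7 against 0.542, 2.14 and 0.795 units (4.23 ± 0.64, adjusted p = 0.00414). Every d24 library lay above every wt library for all of them, and d24 replicate 1 was the highest. Reads of tryptases and chymases may be split between near-identical copies. Of the remaining higher members, picked after their values were seen, Fcer1a, the alpha chain of the IgE receptor, stood at 10.9, 6.60 and 6.51 against 0.383, 0.0315 and 0.0837 units (3.67 ± 0.56, adjusted p = 0.00485), and Cpa3, mast cell carboxypeptidase, at 106, 9.56 and 42.8 against 3.86, 5.63 and 3.22 units (2.95 ± 0.67, adjusted p = 0.0407). Mrgprb1, another member of the list, stood at 14.2, 3.97 and 3.43 units in d24 and at 0 in every wt library. That is at least 68.6-fold higher with 3 reads per library as the limit. Fcer1a and Mrgprb1 reached 1 unit only in the d24 libraries. They entered the test through the group where they are high and could not be tested without any one d24 library. Kit and Gata2, a receptor and a factor that progenitors also express, did not pass (-0.73 and 0.43). In the paired-end table Tpsb2 stood at 0.111, 0.202 and 0.342 units in untreated and 0.0941, 0.355 and 0.255 units in X-rayed wt spleen. It was thus low there too, though levels are not like for like across the tables. Without 1 d24 library 4 or 5 higher members passed, and without 1 wt library 7 or 8. The Xist covariate passed 2 higher and 2 lower.

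The lower members were the basophil proteases. Mcpt8 stood at 0 units in every d24 library and at 7.02, 12.6 and 9.20 units in wt, at least 94.7-fold lower when 3 reads per library are taken as what a count of 0 allows (limma adjusted p = 0.00163). Prss34 had 2 reads in the d24 libraries and 848 in the wt libraries, a ratio of 437 of wt to d24 with a 95% exact interval of 121 to 3616 that covers counting error only (adjusted p = 0.00210). Both genes reached 1 unit only in the wt libraries, so they entered the test through the group where they are high and could not be tested without any one wt library. They passed in the 3 refits without a d24 library. The 2 promoters that follow, of Mcpt4 and Cpa3, are shown because 4 of the 5 called higher members with a window held GATAA, against 17.6% of the tested genes with a window. GATAA was also held by 12 of 19 erythroid regulator and surface genes with a window, a list with 1 called gene. In globin and heme synthesis, a list with no called gene, 7 of 12 held it. The promoters of Mcpt4 and Cpa3 are printed on the minus strand from RefSeq GRCm38.p6, at chr14:56062311-56062560 for Mcpt4 and chr3:20242182-20242431 for Cpa3, with GATAA on either strand in capitals.
Mcpt4: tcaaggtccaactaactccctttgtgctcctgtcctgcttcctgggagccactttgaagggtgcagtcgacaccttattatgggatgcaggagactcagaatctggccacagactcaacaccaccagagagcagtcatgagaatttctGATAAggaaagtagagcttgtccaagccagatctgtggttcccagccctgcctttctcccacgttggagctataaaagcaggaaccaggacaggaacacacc
Cpa3: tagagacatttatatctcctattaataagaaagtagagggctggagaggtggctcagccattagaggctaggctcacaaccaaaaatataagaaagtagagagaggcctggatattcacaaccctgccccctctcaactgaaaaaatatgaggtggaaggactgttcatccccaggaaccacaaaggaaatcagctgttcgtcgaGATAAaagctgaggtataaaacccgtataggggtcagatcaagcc
The matches lay from 102 to 98 bases before the start of Mcpt4 and from 45 to 41 bases before the start of Cpa3.

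Of the erythroid genes 1 passed. Erfe, erythroferrone, a hormone of erythroblasts that lowers hepcidin, stood at 117, 200.4 and 158 units in d24 and 8.49, 9.41 and 15.1 units in wt (chr1:91366305-91374217, GRCm38.p6). The groups lay far apart, with a log2 difference of 3.80 ± 0.32 (limma adjusted p = 0.000121). It was the only member called among 22 erythroid regulators and surface genes, whose median difference was -0.09. Klf1 and Gata1, the master regulators of the lineage, differed by -0.17 and -0.10. Slc4a1, band 3, differed by 0.12. No member passed among the 8 genes of the membrane skeleton (median 0.06) or the 15 of globin and heme synthesis (median -0.08). In the paired-end table Erfe stood at 9.77, 18.01 and 14.8 units in untreated and 22.1, 13.7 and 17.2 units in X-rayed wt spleen, within or near the range of the single-end wt libraries.

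Stromal genes showed few calls. Of 26 fibroblast and matrix genes, 1 was higher and none lower, and the groups did not overlap for 7 with d24 higher, against 8.74% of all genes. Pdgfra, a growth factor receptor of fibroblasts, stood at 76.5, 109 and 87.2 units in d24 and 19.4, 25.4 and 7.15 units in wt (2.52 ± 0.41, limma adjusted p = 0.00706, and 0.266 with the Xist covariate). The list's median was 0.78, and 0.18 with the covariate. Wt1, a factor of splenic stroma and mesothelium, was the 1 called gene among 14 of the reticular stroma, at 29.3, 29.1 and 37.6 against 8.74, 13.8 and 7.78 units (1.65 ± 0.34, adjusted p = 0.0267). That call was lost with the Xist covariate (adjusted p = 0.887), in 1 fit of 18 libraries (0.148) and in 4 of 6 refits, among them each one without a d24 library. Cxcl12, the chemokine of the stem cell niche, differed by 1.03 (adjusted p = 0.107). No gene passed among 12 of smooth muscle and pericytes (median 0.17) or 17 of endothelium (median 0.45).

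**Figure D4:**
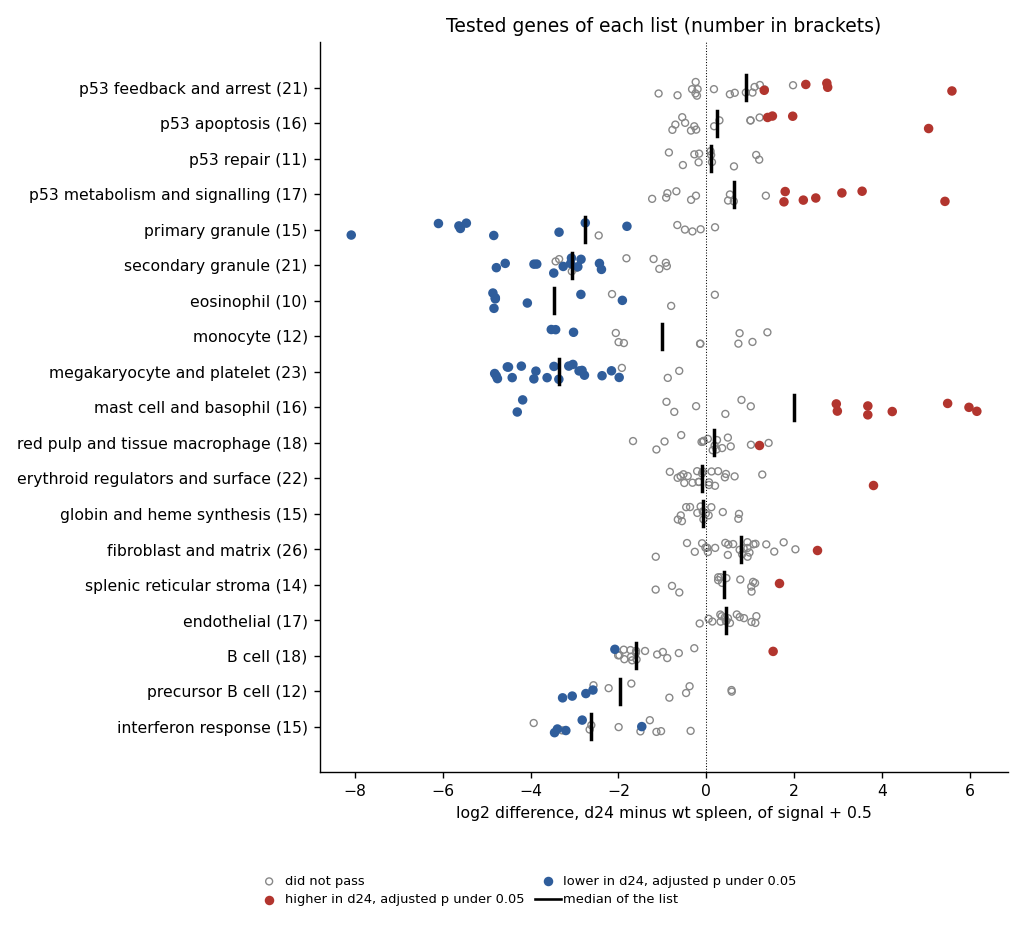
Log2 difference of d24 against wt spleen for every tested member of each list, one point per gene, with the median of the list as a bar. Filled points passed an adjusted p of 0.05, and they lie below 0 for the granule, eosinophil and platelet lists, whose medians are -2.75, -3.06, -3.46 and -3.36, and above 0 for the 16 called p53 genes.

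Of 18 B cell genes 1 was lower and 1 higher (median -1.60), and the groups did not overlap for 9 with d24 lower, against 10.6% of all genes. Cd79b, a chain of the B cell receptor, stood at 68.4, 15.6 and 26.2 units in d24 and 124, 134 and 133 units in wt (-2.08 ± 0.43, limma adjusted p = 0.0261). Its partner Cd79a stood at 81.0, 13.9 and 51.4 against 126, 162 and 147 units and did not pass (adjusted p = 0.0782). The wt libraries lay close together for both chains, and d24 replicate 2 was the lowest. The higher gene was Tnfrsf13c, the receptor of the survival factor BAFF (1.52 ± 0.31). The count of lower B cell genes was 6 without d24 replicate 1 and 0 without d24 replicate 2, d24 replicate 3 or wt replicate 3, and neither gene passed with the Xist covariate (adjusted p = 0.246 for Cd79b in limma). The list summed to 718, 211 and 463 units in d24 and 949.7, 1183 and 791 units in wt, so every d24 library lay below every wt library. Precursor B cell genes were lower in 4 of 12 (median -1.97), and none of them passed with the Xist covariate. Their summed level overlapped between the groups, at 215, 155 and 265 units in d24 and 237, 288 and 173 units in wt. Rag2, a subunit of the recombinase that joins receptor segments, had 3 reads in d24 and 337 in wt, a ratio of 116 with a 95% exact interval of 39.3 to 565 that covers counting error only. Between libraries its adjusted p in limma was 0.0224, and 0.552 with the Xist covariate, and it passed in 2 of the 3 refits in which it could be tested. Rag2 reached 1 unit only in the wt libraries, so it entered the test through the group where it is high. Vpreb3 (-2.58) and Dntt (-2.74) were lower as well, and none of the precursor genes passed without d24 replicate 2 or without wt replicate 3, and 1 passed without wt replicate 2. No gene passed among 17 of T cells (median -0.55), 12 of NK cells (median -1.63) or 10 of plasma cells (median 0.29).

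Interferon response genes were lower in 5 of 15 (median -2.62), but 1 passed without wt replicate 3, 1 without d24 replicate 1, 2 without d24 replicate 3, and none without d24 replicate 2 or with the Xist covariate. Ifit1, an antiviral RNA-binding protein, stood at 4.40, 2.62 and 4.26 units in d24 and 18.7, 23.1 and 184 units in wt (-3.39 ± 0.69, limma adjusted p = 0.0250). The value of wt replicate 3 was several times that of the other wt libraries, and the summed list stood at 341, 303 and 563 units in d24 and 868, 902 and 2746 units in wt. Of the genes of neighbouring organs, the acute-phase protein Hp, which neutrophils also make, was the 1 lower gene among 7 tested hepatocyte genes (-2.45 ± 0.44, adjusted p = 0.0126, and 0.291 with the Xist covariate). Pancreatic acinar genes summed to 2298 units in wt replicate 3 and to 15.5 to 32.2 units in the other libraries. No tested adipocyte or mesothelial gene passed, nor any of 17 stem and progenitor genes (median -0.05).

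Genes outside the lists were also among the largest increases. Zfp750, a zinc-finger factor of epidermal differentiation, stood at 19.1, 28.6 and 36.7 units in d24 and 0.0319, 0.189 and 0 units in wt (5.61 ± 0.49, limma adjusted p = 0.000154). Gmpr, GMP reductase of purine metabolism, stood at 145, 274 and 157 against 12.9, 12.3 and 10.2 units (3.92 ± 0.31, adjusted p = 6.43e-05). Cda, cytidine deaminase, stood at 16.3, 34.2 and 35.4 against 1.28, 0.472 and 0.544 units (4.50 ± 0.49, adjusted p = 0.000437). None of these overlapped between the groups, and wt held almost no Zfp750, which entered the test only through the d24 libraries. In the paired-end wt spleens Zfp750 stood at 0, 0.0623 and 0.0569 units untreated and at 2.75, 2.26 and 2.15 units X-rayed. Its X-ray log2 difference was 2.42 (limma adjusted p = 2.34e-05), and that of Gmpr was 0.28 and of Cda -1.07. Serpina3n, an acute-phase protease inhibitor, stood at 38.9, 178 and 25.7 against 0.957, 5.50 and 1.51 units (4.45 ± 0.69, adjusted p = 0.00491), with d24 replicate 2 far above the others.

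The d24 difference was also measured in liver and thymus of the single-end table, and its difference from spleen was tested in a fit of all 18 libraries. The characteristics of those tissues are reversed, with control for d24 and X-rays for wt, so genotype and irradiation may be combined differently there. In liver 0.752% of 16092 genes were higher and 0.994% lower in d24 (1.75% in all), and in thymus 0.671% and 0.0621% (0.733% in all). The spleen difference was distinct from that of liver for 81 genes (0.503%, with 0.23% higher and 0.273% lower) and from that of thymus for 105 genes (0.652%, with 0.143% and 0.51%). Of the p53 lists, 5 members were higher and 1 lower in liver (median 0.27) and 6 were higher in thymus (median 0.40). Against liver the spleen difference was higher for 2 p53-list members and lower for 1, and against thymus it was higher for 2. Eosinophil genes had a median of -3.08 in liver with 5 lower, and of 0.81 in thymus with none called. Also lower in liver were 3 primary granule genes (median -1.15), 8 secondary granule (-2.59), 6 B cell (-2.04) and 5 precursor B cell genes (-1.46). No member of these lists was higher in liver or passed between spleen and liver. Against thymus, the spleen difference was lower for 8 primary granule, 4 secondary granule, 5 eosinophil and 12 platelet genes. Against liver it was lower for 5 platelet genes and, in the mast cell and basophil list, higher for 5 genes and lower for 1. Itgb3 differed by -3.36 in spleen and 1.62 in liver, with opposite signs.

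**Figure D5:**
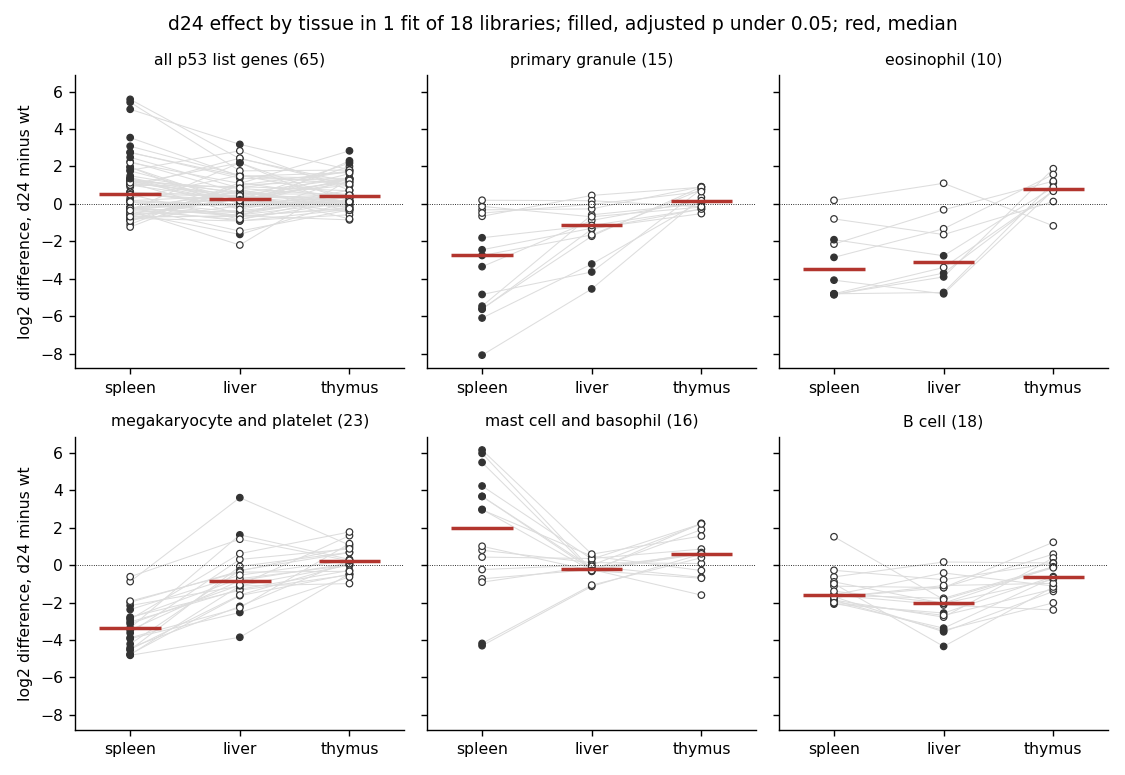
Log2 difference of d24 against wt in spleen, liver and thymus from 1 fit of the 18 single-end libraries, for 6 gene lists, with lines joining each gene, filled points for an adjusted p under 0.05 and a red bar at the median. The primary granule median is -2.75 in spleen, -1.15 in liver and 0.18 in thymus, and the mast cell and basophil median is 1.98 in spleen and -0.19 in liver.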

How the data were processed

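RNA was measured by sequencing in 6 spleen libraries, 3 titled d24 and 3 titled wt. The deposited values are a normalised signal per gene, that is reads per 1000000 reads of an adjusted library size (CPM times a composition factor per library), made by the authors with edgeR on mm10, per the submitters' processing notes. No source used here names the aligner, the counting tool or whether strand was used. Dividing each deposited signal by the value of 1 read gave whole read counts for 100% of values (tolerance 0.01). Of the paired-end columns, 18 match no library and were not used. Symbols came from the gene identifiers and were found for 97.1% of genes.

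Groups followed the titles. Genes with at least 1 unit in at least 3 of the 6 libraries were tested in limma 3.58.1 (R 4.3.3) with a trended prior on log2(signal + 0.5), two-sided, with Benjamini-Hochberg adjustment over all 13554 genes and a threshold of 0.05. Fold changes are on that scale, which understates the change of low genes. The plan assumed CPM, and the same test was used. Tissue differences came from 1 limma fit of 18 libraries, and the paired-end X-ray comparison from its own fit. The code was tested on simulated data. Named genes are the panel of 14 p53 genes, the 10 largest differences in each direction among called genes with a mean of at least 5 units, up to 4 called members of each list by smallest p (the 2 of highest level where none was called), and 6 genes of smallest p per tissue difference. Some genes that this rule selects are not reported here. Other genes named are said to be chosen after their values were seen, or are members of a list that a sentence enumerates or contrasts with a called member. The members and the 34 lists were chosen with earlier results of these data known. Alternatives were pseudocounts of 0.1 and 2, other filters, median-ratio and quantile scaling, no trend, the replicate number as a block, Xist as a covariate, tests of the recovered read counts in edgeR 4.0.16 and DESeq2 1.42.0, 1 fit of 18 libraries, and leaving out each library.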

Additional observations from a re-analysis of the deposited data

Results flagged for a closer look

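The d24 difference in spleen departed from that in another tissue, by the interaction in limma over 18 libraries, for the following genes of smallest p. Zfp750 differed by 5.61 on the log2 scale in spleen and by -0.01 in liver, a difference of 5.62 ± 0.62 (adjusted p = 0.000309), and by 0.54 in thymus, a difference of 5.07 ± 0.62 (adjusted p = 0.000515). The X-ray difference in the paired-end wt spleens was 2.42 for Zfp750, -1.07 for Cda and 0.28 for Gmpr. The pyrimidine enzyme gene Cda (4.50 in spleen, -1.02 in liver) gave a difference of 5.52 ± 0.65, and the purine enzyme gene Gmpr (3.92 and -0.68) one of 4.60 ± 0.63. C2cd4a, with 526 reads in the d24 spleens and 1 in the wt spleens, gave 3.61 ± 0.51 against liver. Among the spleens it reached 1 unit only in the d24 libraries.

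Itgb3 was -3.36 in spleen and 1.62 in liver, a difference of -4.97 ± 0.57 (limma adjusted p = 0.000309). Pf4 was -4.53 in spleen, -0.07 in liver and 0.68 in thymus, with differences of -4.46 ± 0.67 and -5.21 ± 0.67. Against thymus, Mpig6b, an inhibitory receptor of platelets, gave -4.74 ± 0.60. Mpo was -8.08 in spleen and 0.35 in thymus, a difference of -8.43 ± 1.03 (adjusted p = 0.000515), and Elane -6.09 and 0.14, a difference of -6.24 ± 0.76. In liver Mpo was -4.54 and Elane -3.21. Their difference between spleen and liver did not pass (limma adjusted p = 0.172 and 0.117). The treatment given in the characteristics is reversed between spleen and these tissues, so its share in these differences cannot be told apart from that of the tissue.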

How the results depend on the processing

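The number of genes called between d24 and wt spleen was 309 (141 higher, 168 lower). It was 159 (71 and 88) with no filter, 574 (238 and 336) with the replicate block, 45 (23 and 22) with Xist as a covariate, 145 (83 and 62) in edgeR and 594 (307 and 287) in DESeq2, and 119 to 241 (46 to 139 and 73 to 153) without each library in turn, where d24 replicate 2 gave the lowest. Without the trend 89 were higher, and in 1 fit of 18 libraries 258 were lower. The cause of these shifts was not tested. Same-numbered d24 and wt spleens share only a number: their deviations from the group means correlated at -0.16, -0.19 and -0.05, and no d24 library correlated best with the wt library of its number. With the replicate block the interactions called 62 genes against liver and 90 against thymus, and all 63 called genes selected by the naming rule passed. The higher share of calls, 45.6%, was 50.8% with quantile scaling, 57.2% in edgeR and 38.3% in 1 fit of 18 libraries. It was 28.2%, 38.7% and 35.98% without d24 replicates 1, 2 and 3, and 46.9%, 54.5% and 57.7% without wt replicates 1, 2 and 3. The 81 genes against liver became 28 with a pseudocount of 0.1, 139 with 2, and 37 to 87 without each spleen library. The 105 against thymus became 60 with a pseudocount of 0.1, 43 with a mean of at least 5 units, and 36 to 145 without each spleen library.

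Of the 63 called genes selected by the naming rule, none reversed. Under the Xist covariate 29 passed, in edgeR 46, in DESeq2 60, with no filter 44, and without each library 38 to 53. A gene absent from one group passes the filter only with all libraries of the other, so it could not be tested when one of those was left out. Genes that did not pass and changed sign were these. With the Xist covariate they were Sptb (-0.34), Jchain (-0.35), Msln (-0.83), Hba-a1 (0.026), Tal1 (0.020), Nfkb1 (-0.0053) and Rrm1 (-0.0010), and with quantile scaling Tal1 (0.090) and Btg1 (0.022). Without each library in turn the log2 difference ran for Fas from -0.46 to 0.022, Rrm2 from -0.18 to 0.35, Rrm1 from -0.23 to 0.47, Mki67 from -1.16 to 0.059, Tal1 from -0.19 to 0.14, Sptb from -0.48 to 0.89, Hba-a1 from -0.42 to 0.21, Acta2 from -0.30 to 0.22, Tagln from -0.29 to 0.077, Jchain from -0.42 to 1.28, Tcf7 from -0.37 to 0.28, Btg1 from -0.15 to 0.075, Jund from -0.40 to 0.069 and Msln from -0.22 to 0.94. Depth limits genes near 0, where 1 read is worth 0.0290 to 0.0418 units.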

Other observations

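Outside the gene lists 112 genes were higher and 103 lower in d24 spleen. The groups that follow were chosen after their values were seen, so their counts are descriptions. Among genes grouped as matrix and stromal regulators, 6 were higher. Smoc2, a calcium-binding matrix protein, stood at 377, 373 and 506 units in d24 and 68.9, 92.3 and 72.2 units in wt (log2 difference 2.42 ± 0.26, limma adjusted p = 0.000410), and Sfrp1, a secreted inhibitor of Wnt signalling, at 162, 242 and 190.2 against 32.0, 44.5 and 25.3 units (2.55 ± 0.29). The others were Col26a1 (2.93), Sparcl1 (2.39), Tnn (4.48) and Podxl (3.50), which encodes a cell surface protein rather than a matrix protein. With Xist as a covariate 3 of the 6 passed. The wt libraries varied little for Smoc2 and the groups were well apart. Under X-rays in paired-end wt spleen Podxl differed by -1.24, opposite to d24, Col26a1 by 0.53 and Sparcl1 by 0.61, and these passed. Smoc2 (0.30), Sfrp1 (0.09) and Tnn (-0.09) did not pass there.

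Genes of cytokine signalling were higher for 6 chosen members, of which only Cish passed with the Xist covariate (limma adjusted p = 0.0113). Cish, a feedback inhibitor of cytokine receptors, is not particular to the interleukin-6 family. It stood at 92.6, 173 and 119 units in d24 and 14.4, 15.9 and 26.7 units in wt (2.73 ± 0.33, limma adjusted p = 0.00109). Under X-rays in paired-end wt spleen Cish differed by 1.02 and Socs3 by 0.67, and both passed. The other members, Osmr (0.21), Il6st (0.22), Osm (-0.13) and Serpina3n (0.54), did not pass there. Socs3, the feedback inhibitor of gp130, stood at 28.9, 36.01 and 39.0 against 2.84, 5.47 and 5.77 units (2.80 ± 0.38, adjusted p = 0.00206). Osmr, the oncostatin M receptor (2.29), Il6st, which encodes gp130 (2.19), Osm (1.99) and Serpina3n (4.45) were higher too. The call of Osm held in 1 of 6 refits without 1 library and that of Il6st in 3, and neither passed in edgeR (adjusted p = 0.0641 for both).

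Histone genes H2ac4 (-2.19), H2ac23 (-1.98), H2aw (-1.80), H1f3 (-2.42) and H2bc4 (-1.46) were lower in d24, none of them with the Xist covariate. Histone copies are similar enough that reads may be split. The call of H2bc4 held in 0 of 6 refits without 1 library, that of H1f3 in 3 and that of H2aw in 4. Ccl24, a chemokine for eosinophils that macrophages make, stood at 34.2, 29.4 and 38.5 units in d24 and 1.72, 1.29 and 2.01 units in wt (3.99 ± 0.39, limma adjusted p = 0.000234, and 0.00577 with the Xist covariate), while the eosinophil genes were lower in the same libraries. Gpx3, a secreted glutathione peroxidase, stood at 179.8, 511 and 99.1 against 8.36, 10.003 and 32.9 units (3.84 ± 0.58), with d24 replicate 2 the highest. Gch1, of tetrahydrobiopterin synthesis (-2.12), Cdkn2d, a cell-cycle inhibitor (-2.14), and Plek, a major substrate of protein kinase C in platelets (-1.81), were lower. In paired-end wt spleen the X-ray difference was 1.69 for Gpx3, 0.96 for Ccl24 and 1.09 for Plek, and these passed. It was 0.50 for Gch1 and 0.59 for Cdkn2d, which did not pass.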
